A study of Mus musculus with 4 samples.

Results

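Gli1, Gli2 and Gli3 encode the zinc finger transcription factors through which vertebrate cells read Hedgehog signal. Chromatin at these 3 genes was examined in the posterior forelimb bud of mouse embryos with and without Sonic hedgehog (Shh). The members were all ATAC-seq peaks that overlapped the body of one of the 3 genes or 50 kb on either side of it, in the mm10 build and with GENCODE release M21 gene bodies. They were 72 peaks over the 4 peak lists. After peaks that shared at least 1 bp were merged across libraries they formed 41 regions of 44692 in all, 13 around Gli1, 20 around Gli2 and 8 around Gli3.

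ATAC-seq marks open chromatin by where the Tn5 transposase can insert sequencing adapters. The 4 libraries came from Swiss Webster embryos at stage E10.5 (35 somites). There were 2 wild-type (WT) libraries and 2 from Shh-/- embryos, which carry a null allele of Shh in every cell and so lack the posterior signal from the onset of limb development. Each library was made from about 5000 cells of the posterior forelimb buds of 1 embryo and amplified with 18 PCR cycles. No other allele or agent was named for either group, and the deposited lists do not hold the reads.

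GLI2 and GLI3 act both ways. Without ligand they are processed into, or held as, repressors, and GLI3 supplies most of the repressor in the limb bud, whereas with ligand the full-length proteins can activate transcription. GLI1 has no repressor form, and its gene is itself switched on by the pathway, so Gli1 RNA is a widely used readout of Hedgehog response. Gli1 is therefore a target as well as a mediator, and it is set beside Gli2 and Gli3 below.

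The whole lists held 39080 peaks in WT replicate 1 and 11973 in WT replicate 2, against 5589 and 18459 in Shh-/- replicates 1 and 2. The lists thus differed several times in length within each genotype. The study's methods give one sequencing depth for such libraries, but the reads retained in each library are not in the lists. A peak that is absent from a list was not called there, which is not the same as closed chromatin. The peak score could be compared only within its own list, so places are given as the percentage of peaks in the same list that scored higher. Markers gave a partial check of the tissue. Over all protein-coding genes, 60.4%, 39.2%, 17.3% and 51.3% had a promoter peak in WT replicates 1 and 2 and Shh-/- replicates 1 and 2. The marker counts are small and were not tested against these shares. Promoter peaks were called for 6, 4, 4 and 5 of 6 limb mesenchyme genes in WT replicates 1 and 2 and Shh-/- replicates 1 and 2, for 1, 0, 0 and 1 of 5 limb ectoderm and ridge genes, for 2, 1, 0 and 2 of 2 muscle progenitor genes, for 1, 0, 0 and 1 of 3 endothelial genes and for 0 of 2 blood genes in any list. Tbx5, which defines the forelimb, had one in WT replicate 1 alone, and the 2 hindlimb genes had 2, 0, 0 and 1. Of 5 posterior limb bud genes, 4, 1, 0 and 1 had a promoter peak. Shh itself had none in any library. Its window with 50 kb either side held 3, 0, 0 and 2 peaks, which were not placed against the deleted part, so the labels were not checked by the deleted gene. The part of cell type mixture in the results was not tested, and in bulk tissue fewer cells of a type and less open chromatin per cell cannot be told apart.

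The stretches that carry the results are shown first, each read from GRCm38.p6 (the mm10 assembly) 5′ to 3′ on the strand of its gene. Capitals mark a match with at most 1 mismatch to TGGGTGGTC, the consensus bound by GLI proteins, searched on both strands. The first is the only stretch of Gli1 that peaks from all 4 libraries covered, 189 bp in intron 2 at chr10:127339066-127339254, minus strand. The second is the 200 bp around the summit of the WT replicate 2 peak nearest the Gli1 start, also in intron 2, at chr10:127340790-127340989, minus strand, which no Shh-/- peak touched.
Gli1 intron 2, all libraries: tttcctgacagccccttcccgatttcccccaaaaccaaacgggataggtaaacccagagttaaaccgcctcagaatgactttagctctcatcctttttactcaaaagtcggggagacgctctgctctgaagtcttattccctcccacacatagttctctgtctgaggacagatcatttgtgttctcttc
Gli1 intron 2, WT only: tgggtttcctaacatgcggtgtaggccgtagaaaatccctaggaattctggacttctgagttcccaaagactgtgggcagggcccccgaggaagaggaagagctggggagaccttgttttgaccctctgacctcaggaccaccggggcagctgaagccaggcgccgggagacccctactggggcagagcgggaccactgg

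For Gli2, 300 bp of the promoter that all 4 libraries covered (chr1:119053691-119053990, minus strand) stand beside the middle 300 bp of the intron 2 stretch that WT replicate 1 and both Shh-/- libraries covered (chr1:118904859-118905158, minus strand).
Gli2 promoter: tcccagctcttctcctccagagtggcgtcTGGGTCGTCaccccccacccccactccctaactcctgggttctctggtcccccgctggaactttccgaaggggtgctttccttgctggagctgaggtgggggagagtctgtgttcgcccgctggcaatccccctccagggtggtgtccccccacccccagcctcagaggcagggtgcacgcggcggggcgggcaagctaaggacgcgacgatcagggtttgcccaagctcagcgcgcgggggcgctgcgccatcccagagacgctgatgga
Gli2 intron 2: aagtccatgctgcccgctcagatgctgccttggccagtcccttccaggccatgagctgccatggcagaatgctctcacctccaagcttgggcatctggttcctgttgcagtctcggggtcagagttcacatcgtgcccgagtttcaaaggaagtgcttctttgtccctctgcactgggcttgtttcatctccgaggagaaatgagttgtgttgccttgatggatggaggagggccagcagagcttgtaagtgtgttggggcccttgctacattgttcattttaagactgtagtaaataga

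For Gli3, the 159 bp shared by all 4 libraries at the promoter (chr13:15463619-15463777, plus strand) stand beside the 243 bp of intron 2 shared by WT replicate 1 and both Shh-/- libraries (chr13:15544335-15544577, plus strand) and the 253 bp of intron 3 shared by WT replicate 1 and Shh-/- replicate 2 (chr13:15549440-15549692, plus strand).
Gli3 promoter: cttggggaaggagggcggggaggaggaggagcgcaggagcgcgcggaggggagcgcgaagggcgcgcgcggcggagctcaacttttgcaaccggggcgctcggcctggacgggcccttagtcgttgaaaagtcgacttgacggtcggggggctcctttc
Gli3 intron 2: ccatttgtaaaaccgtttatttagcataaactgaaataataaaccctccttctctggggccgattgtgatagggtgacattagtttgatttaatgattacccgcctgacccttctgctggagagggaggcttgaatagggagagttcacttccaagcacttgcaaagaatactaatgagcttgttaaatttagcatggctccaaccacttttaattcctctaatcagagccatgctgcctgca
Gli3 intron 3: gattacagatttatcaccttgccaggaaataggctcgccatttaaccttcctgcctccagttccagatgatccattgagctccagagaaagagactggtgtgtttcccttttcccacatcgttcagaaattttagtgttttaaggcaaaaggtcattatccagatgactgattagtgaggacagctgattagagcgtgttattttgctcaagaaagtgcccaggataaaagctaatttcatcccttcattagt

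These stretches differ in base composition. The promoter stretch of Gli3 was 69.8% G or C with 20 CpG dinucleotides and the printed promoter stretch of Gli2 67.3% with 19, whereas the intron stretches of Gli3 were 42.0% and 41.5% with 3 CpG each. The Gli1 intron 2 stretch common to all libraries was 47.1% G or C with 5 CpG. The printed stretch of Gli2 intron 2 was 52.3% with 5 CpG, and that of Gli1 intron 2 covered in WT only was 60.5% with 7. The intron stretches thus ranged from 41.5% to 60.5%, below both promoter stretches. Of the stretches printed, a match to the GLI consensus stood in the Gli2 promoter alone. Another shared stretch of Gli2 intron 2, chr1:118982502-118983301, was not printed and held 1 match.

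**Figure D1:**
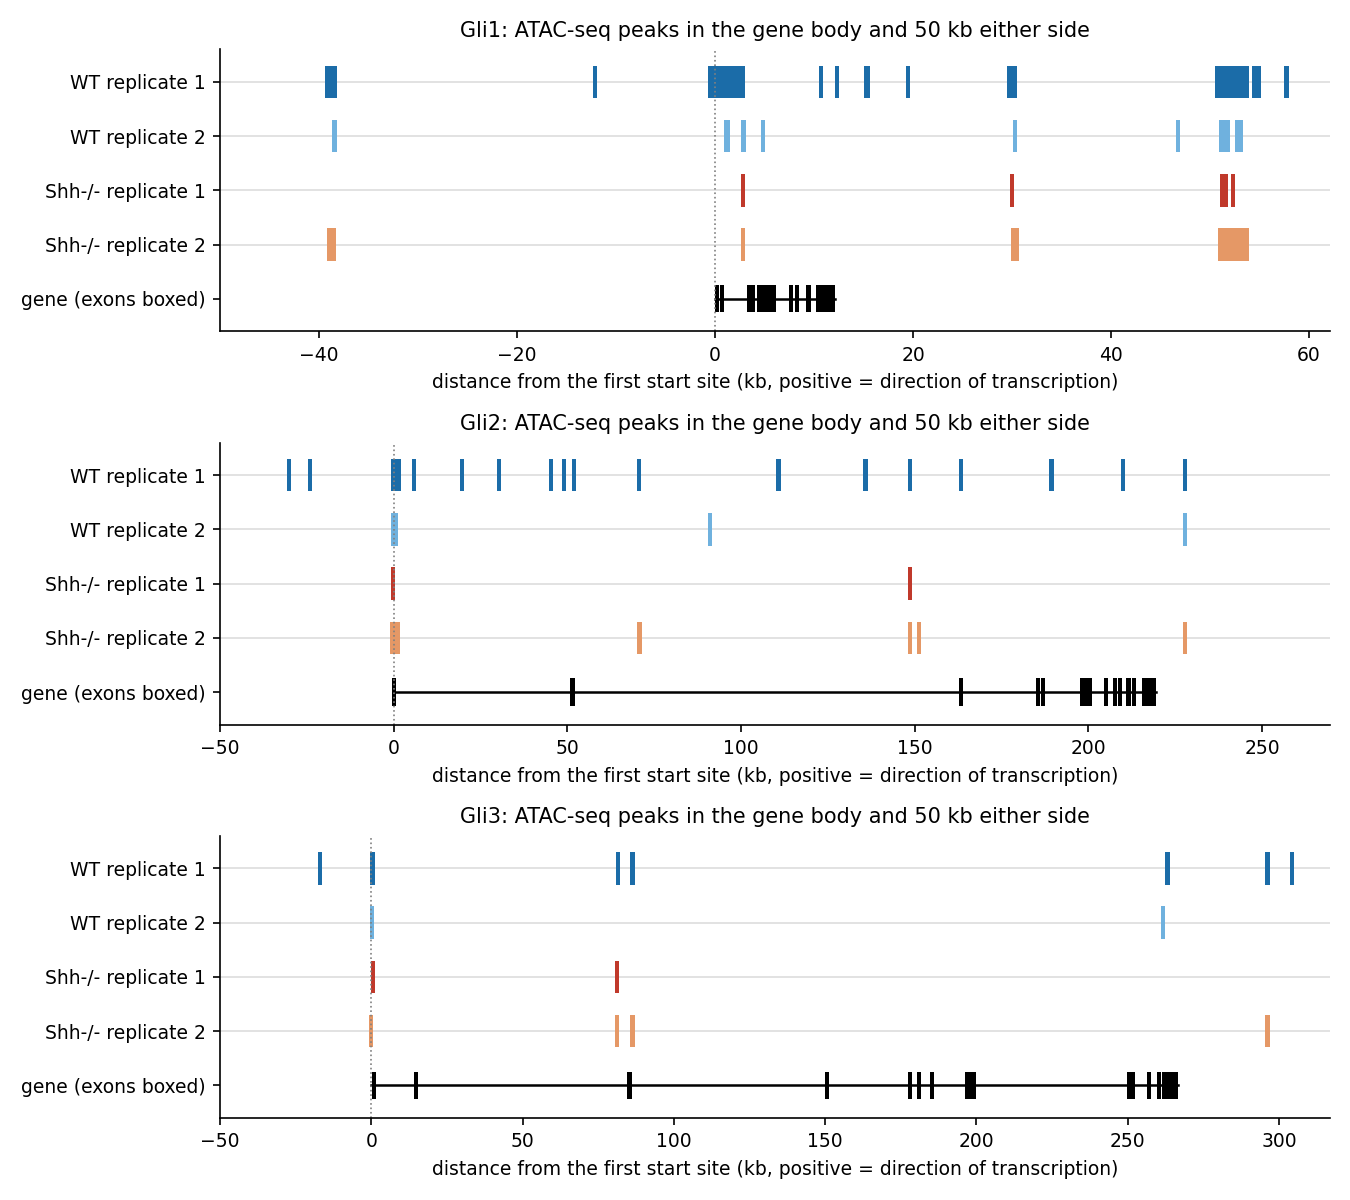
Peaks of each library across the Gli1, Gli2 and Gli3 windows, by distance from the first annotated start site in kb (positive in the direction of transcription). Each block is a peak in a library's list and black boxes are exons, and features too narrow to see are drawn wider than they are. The 4 tracks share the start of Gli2, the start of Gli3 and a spot inside Gli1. All 4 also have peaks downstream of Gli1 at the promoters of Ddit3 and Mbd6 and of Mars. WT replicate 1 has the most peaks in each window.

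To ask whether chromatin at the start of each gene was called open with and without Shh, peaks were assigned to the promoter when they overlapped 2 kb before to 1 kb after an annotated start site. The promoter of Gli1 had a peak in both WT libraries and in neither Shh-/- library, whereas those of Gli2 and Gli3 had one in all 4. Among the 21938 protein-coding genes promoter peaks reached 60.4% and 39.2% in WT replicates 1 and 2, and 17.3% and 51.3% in Shh-/- replicates 1 and 2. The pattern of Gli1 was shared by 1.53% of protein-coding genes and that of Gli2 and Gli3 by 16.1%. The reverse pattern, both Shh-/- libraries and no WT library, was found at 0.00456% of them and at 0 of the 3 Gli genes.

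Gli1 (ENSMUSG00000025407.7) is a compact gene of 12.1 kb with 13 exons on the minus strand of chromosome 10, at chr10:127329882-127341974. In WT replicate 1 a single peak of 3658 bp, chr10:127338983-127342640, ran from upstream of the start site through exons 1 and 2 into intron 2. Its score of 188 placed it at rank 5850, with 15.0% of that list scoring higher, and its summit lay 2728 bp downstream of the start. In WT replicate 2 the promoter peak was 599 bp long, chr10:127340463-127341061, lay wholly in intron 2 and did not reach the start site. Only 88 bp of it fell in the promoter window, and its score of 49, which 879 peaks of the list shared, gave rank 5578, with 46.6% of the list higher. Both WT libraries thus had a peak at the 5′ end of Gli1, but of different extent.

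Shh-/- replicates 1 and 2 had 1 peak each on the body of Gli1. The peak of replicate 1 was 235 bp long, chr10:127339066-127339300, with a score of 34 and 80.7% of its list higher. The peak of replicate 2 was 242 bp long, chr10:127339061-127339302, with a score of 31 and 83.0% of its list higher. Both lay at the same place in intron 2, with summits 2784 and 2737 bp downstream of the start. WT replicate 2 had a peak there as well, chr10:127338957-127339254, with a score of 26 and 74.0% of the list higher, and the summit of the long WT replicate 1 peak, 2728 bp downstream of the start, fell inside both Shh-/- peaks. The intron 2 stretch printed first was therefore called in all 4 libraries, while the 5′ part of the region was covered by no Shh-/- peak. In that part WT replicate 2 covered intron 2 sequence only. The start site, exon 1 and exon 2 were thus covered by the WT replicate 1 peak alone. Peaks covered 3315 and 1130 bp of the Gli1 body in the WT libraries (27.4% and 9.34% of its length) and 235 and 242 bp in the Shh-/- libraries (1.94% and 2.00%). The whole lists covered 21.7 and 6.04 Mb in WT and 2.45 and 11.3 Mb in Shh-/-. The covered share of other gene bodies was not computed, so the contrast cannot be called particular to Gli1.

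The WT calls at the Gli1 promoter were not among the firmest of their lists. Of the genes with a promoter peak in the same list, 43.9% had a higher best score than Gli1 in WT replicate 1 and 64.7% in WT replicate 2. When all lists were restricted to the top 5589 peaks by score, the length of the shortest list, no library kept a promoter peak at Gli1, and when peaks tied at the limit were kept WT replicate 2 did. With a score of at least 50, or with a window of 500 bp on either side of the start site, the WT replicate 1 peak was the only one left. The list of Shh-/- replicate 2, which had no Gli1 promoter peak, was longer than that of WT replicate 2, which had one. The part of list length in the promoter calls of Gli1 was not tested.

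**Figure D2:**
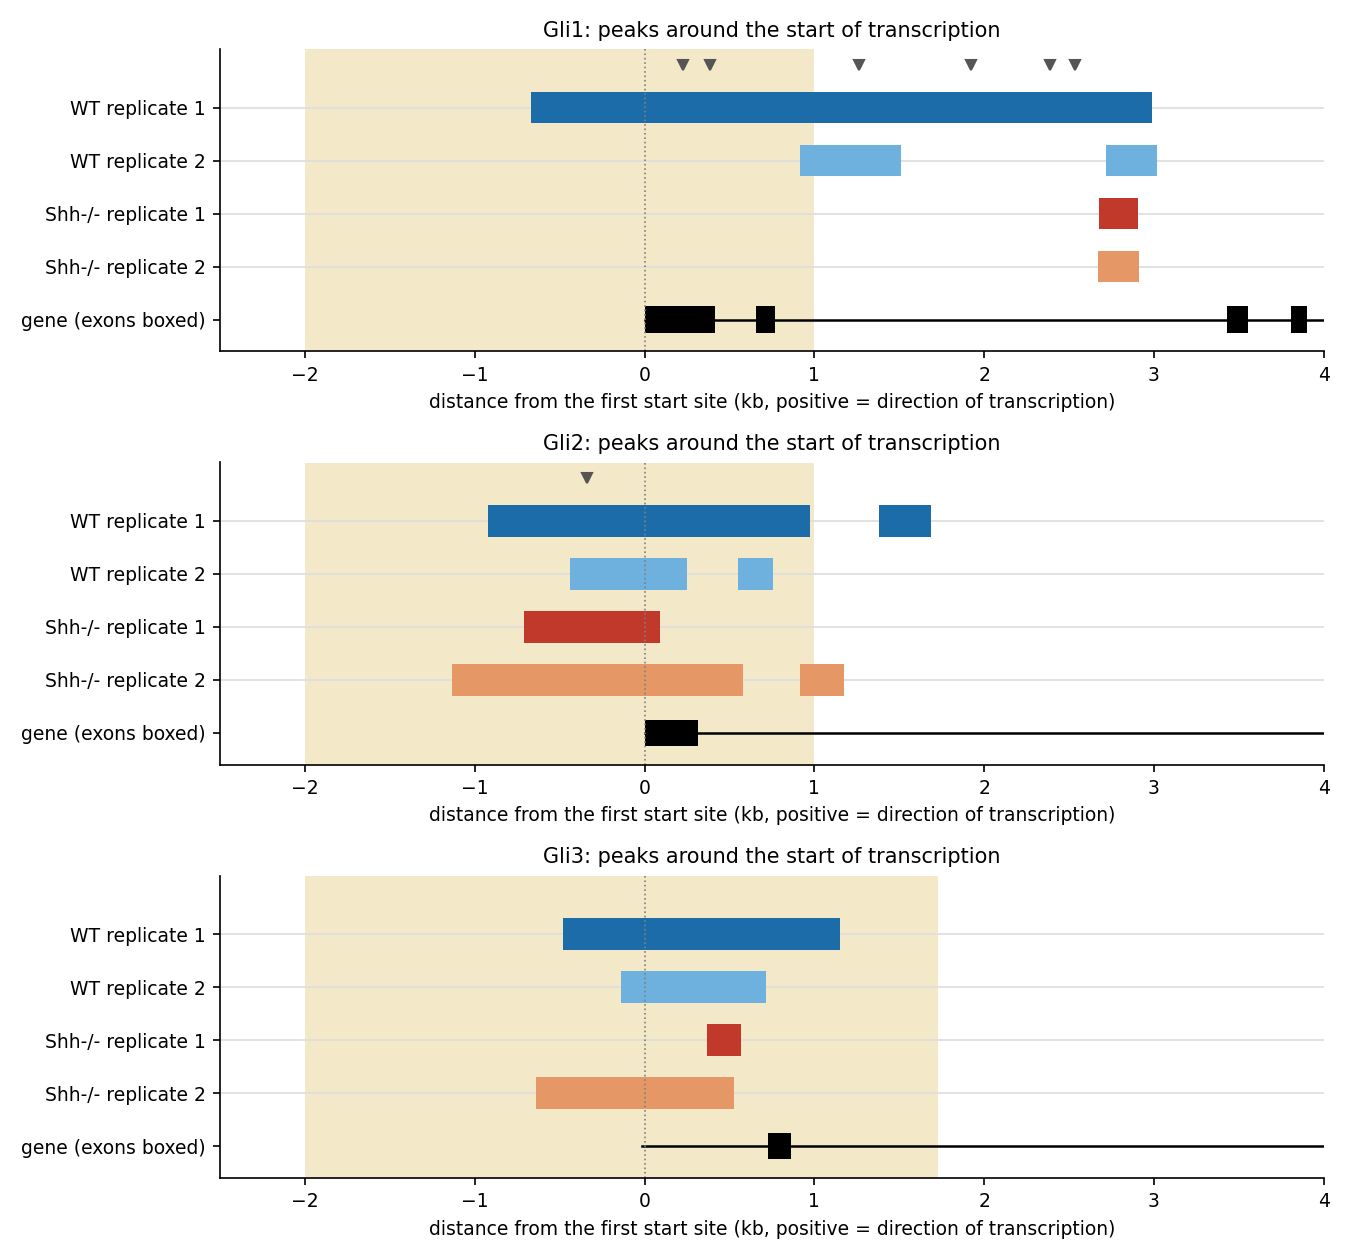
Peaks from 2.5 kb before to 4 kb after the first start site of Gli1, Gli2 and Gli3, to scale, with the promoter window shaded and exons of the main transcript as black boxes. Triangles mark matches with 1 mismatch to the GLI consensus that lie in a merged region. At Gli1 the Shh-/- peaks of 235 and 242 bp lie in intron 2, outside the promoter window, where all 4 libraries overlap. The 6 triangles lie over the WT replicate 1 peak, which is 3658 bp long, and over no Shh-/- peak.

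Gli2 (ENSMUSG00000048402.14) spans 219 kb on the minus strand of chromosome 1, chr1:118834132-119053619, with 14 exons. Its promoter peak covered the start site in each library. It was chr1:119052647-119054539 in WT replicate 1, with a score of 275 and 10.7% of the list higher, and chr1:119053367-119054060 in WT replicate 2, with a score of 143 and 14.2% higher. In the Shh-/- libraries it was chr1:119053531-119054331 in replicate 1, with a score of 51 and 63.0% of the list higher, and chr1:119053037-119054756 in replicate 2, with a score of 230 and 18.3% higher. By percentage the place in Shh-/- replicate 1, the shortest list, stood apart from the other 3, which had under 20% of the list higher. By rank it did not, at 3521 against 4177 and 1697 in WT replicates 1 and 2 and 3380 in Shh-/- replicate 2. WT replicate 2 and Shh-/- replicate 2 each had a further small peak in intron 1, the former inside the window and the latter reaching into it with its summit outside. All 4 libraries kept a promoter peak at Gli2, and at Gli3, at equal list size.

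Gli3 (ENSMUSG00000021318.15) spans 267 kb on the plus strand of chromosome 13, chr13:15463235-15730026, with 15 exons and start sites at 15463251 and 15463980. Its promoter peak was chr13:15462770-15464404 in WT replicate 1, with a score of 369 and 7.85% of the list higher, and chr13:15463110-15463966 in WT replicate 2, with a score of 66 and 35.4% higher. In Shh-/- replicate 1 it was 203 bp long, chr13:15463619-15463821, between the start sites and over neither, with a score of 26 and 90.1% of the list higher. In Shh-/- replicate 2 it was chr13:15462611-15463777, with a score of 264 and 15.4% of the list higher. Each of these peaks also overlapped the promoter window of Gm6556, and all but that of Shh-/- replicate 1 overlapped that of Gm26645. The Gli3 promoter stood above that of Gli2 in the lists of WT replicate 1 and Shh-/- replicate 2 and below it in the others, and so the order of the 2 genes did not follow genotype. With a score of at least 50 the call was lost in Shh-/- replicate 1.

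Peaks inside introns came next, since Gli2 and Gli3 are long genes with much intron sequence. Peaks that touched a promoter window were left out here, also where they lay wholly in an intron, as did the WT replicate 2 promoter peak of Gli1. The introns of Gli2 then held 12 peaks in the first WT library and 1 in the second, against 1 and 3 in Shh-/- replicates 1 and 2. In Gli3 there were 2, 0, 1 and 2 in the same order. In Gli1 there were 0, 1, 1 and 1. The high Gli2 number was a feature of 1 library.

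Of the intronic regions of Gli2 and Gli3, 4 had peaks in 2 or more libraries, and none of the 4 was called in WT replicate 2. The region in intron 2 of Gli2, chr1:118904474-118905620, about 148 kb downstream of the start, had a peak in WT replicate 1 (score 129, 20.5% of the list higher), Shh-/- replicate 1 (score 34, 80.7% higher) and Shh-/- replicate 2 (score 87, 45.3% higher). In Shh-/- replicate 1 it was the only Gli2 peak other than the promoter. A second region of intron 2, chr1:118982461-118983609, had a peak in WT replicate 1 (score 76, 29.9% higher) and Shh-/- replicate 2 (score 96, 42.3% higher).

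In Gli3 the region in intron 2, chr13:15544227-15545097, 80.5 kb downstream of the start at its Shh-/- summits, had a peak in WT replicate 1 (score 38, 50.6% higher), Shh-/- replicate 1 (score 51, 63.0% higher) and Shh-/- replicate 2 (score 24, 91.4% higher). In Shh-/- replicate 1 it stood above the promoter of the same gene, whose score was 26, and in WT replicate 1 and Shh-/- replicate 2 it stood below. The summits of the Shh-/- peaks, at 15544474 and 15544506, lay in the shared stretch printed above, whereas that of WT replicate 1, at 15544834, lay beyond it. The region in intron 3, chr13:15549396-15549694, had a peak in WT replicate 1 (score 53, 38.9% higher) and Shh-/- replicate 2 (score 54, 61.7% higher). The introns of Gli2 and Gli3 thus held stretches called with and without Shh. No intronic region of these 2 genes was called in both WT libraries alone, against 2.09% of all regions. WT replicate 2 had 1 intronic peak in Gli2 and 0 in Gli3, so there was little room for such a region.

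The regions of the 3 windows were then counted by the libraries that called them. Of 41 regions, 0 had peaks in both WT libraries and no Shh-/- library, against 2.09% of all regions, and 0 in both Shh-/- libraries and no WT library, against 0.396%. The Gli1 promoter region includes the Shh-/- peaks in intron 2. The count is of whole merged regions, so the 5′ part that no Shh-/- peak covered does not enter it. When the long WT replicate 1 peak was shortened to 200 bp around its summit, an alternative chosen after seeing the data, the number was still 0. It could not be otherwise, since the shortened peak met the Shh-/- peaks and no longer reached the WT replicate 2 peak nearer the start. All 4 libraries called 5 regions, which is 12.2% against 7.97% of all regions. They were the Gli1 region, the Gli2 and Gli3 promoters and 2 neighbours of Gli1, the promoters of Ddit3 and Mbd6 and of Mars. WT replicate 1 alone called 24 of the 41, against 51.6% of all regions, and some 1 library alone called 29 (70.7%), against 64.2%. The set of WT replicate 1 with Shh-/- replicate 2 accounted for 3 regions, against 11.0% of all, and that set with Shh-/- replicate 1 added for 2, against 2.26%. These shares lay near those of all regions at this number of members.

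**Figure D3:**
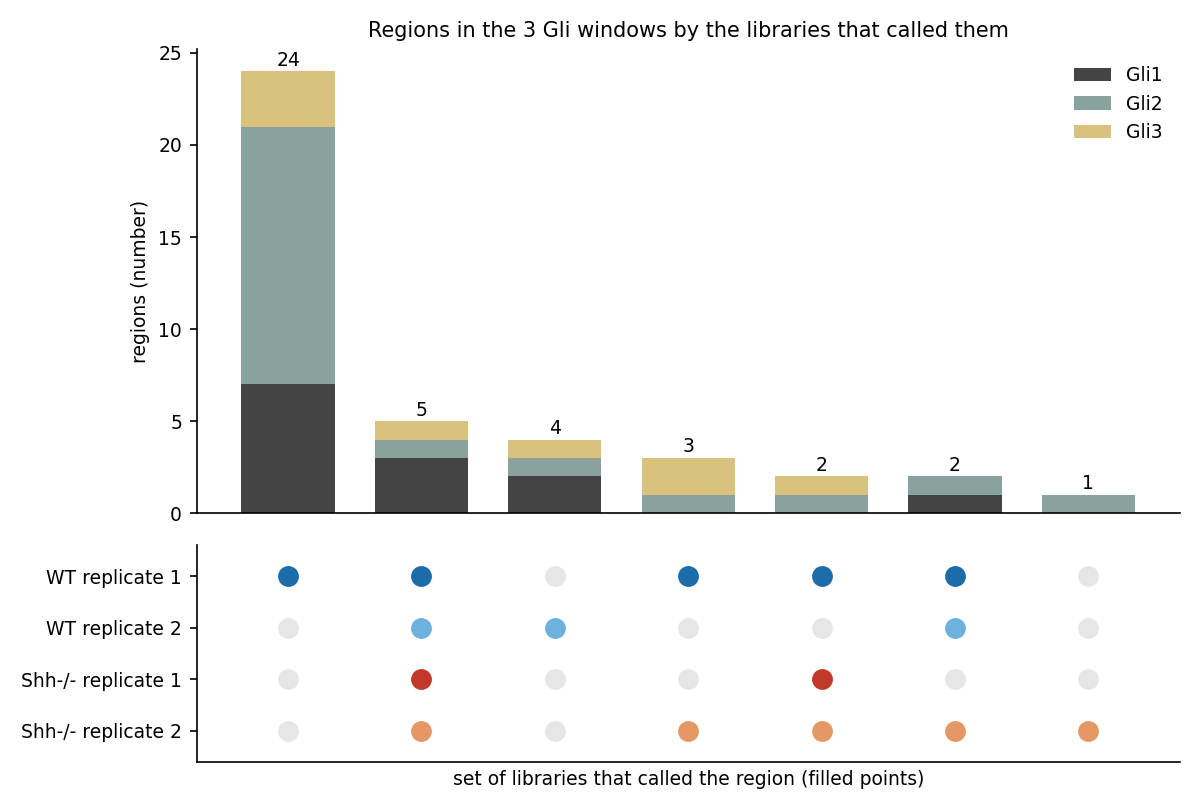
Number of merged regions in the 3 windows for each set of libraries that called them, stacked by gene, with filled points below each bar naming the set. The 24 regions called in WT replicate 1 alone form the tallest bar, the 5 regions called in all 4 libraries come next, and there is no bar for both WT libraries alone or both Shh-/- libraries alone.

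Base composition moved with the calls. Within 100 bp of the summit the median G or C content was 60% in the 11 Gli regions called in WT replicate 2 and 54% in the 30 not called there, and over all regions it was 63% and 54%. For Shh-/- replicate 1 it was 60% in the 7 regions called and 53.75% in the 34 not called, and over all regions 58% and 55.5%. Single regions went both ways. The intron 2 region of Gli3, not called in WT replicate 2, had 44% at its summit, whereas a region in intron 2 of Gli2 called in WT replicate 2 alone had 38.5%, the lowest of the 41. The part of base composition in the calls was not tested.

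**Figure D4:**
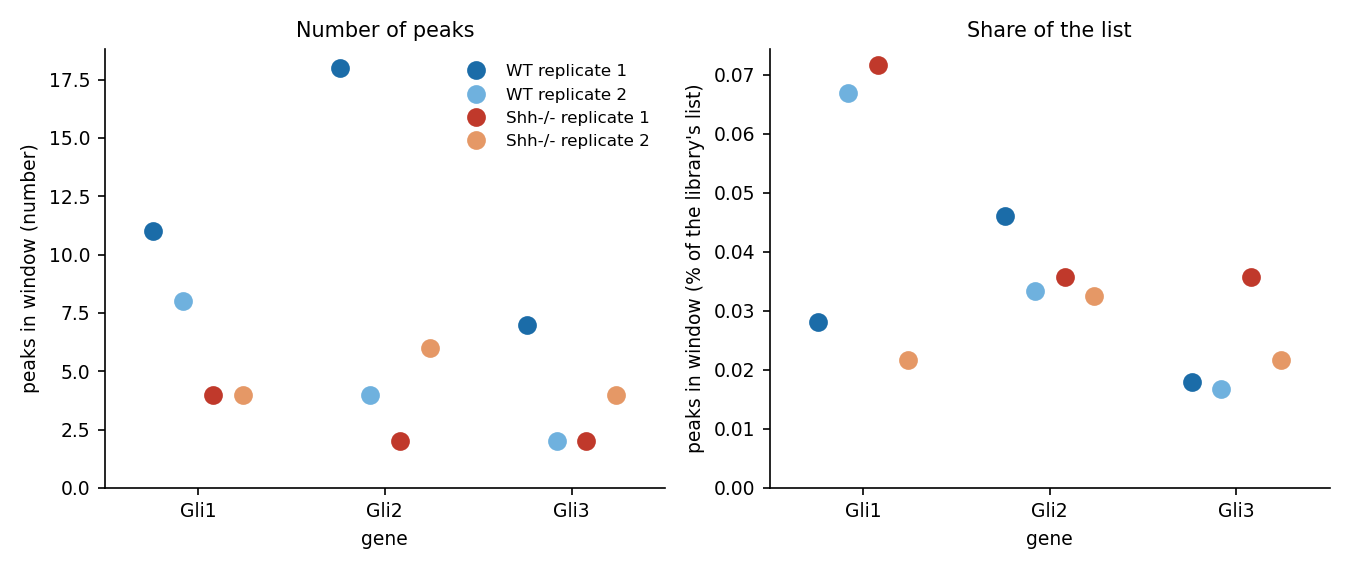
Number of peaks in each window by library (left) and the same peaks as a percentage of the library's whole list (right). Each point is 1 library. By number both WT points of Gli1 (11 and 8) lie above both Shh-/- points (4 and 4), and by share they do not.

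Whole windows were compared by genotype. The Gli1 window held 11 and 8 peaks in the WT libraries and 4 and 4 in the Shh-/- libraries. The mean was 9.5 ± 2.12 (SD, n = 2) in WT and 4 ± 0 (SD, n = 2) in Shh-/-, a difference of 5.5 (two-sided exact permutation p = 0.333, the smallest that 2 against 2 libraries allow). Both WT values were higher than both Shh-/- values, and a separation in this direction held for 8.16% of all protein-coding gene windows. As a percentage of each list the Gli1 window held 0.0281% and 0.0668% in WT and 0.0716% and 0.0217% in Shh-/-, a difference of 0.000863 percentage points (exact permutation p = 1). The separation by number was thus not seen once list length was divided out. With equal list sizes the difference in number turned to −1.

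The Gli2 window held 18 and 4 peaks in WT and 2 and 6 in Shh-/-. The difference of means was 7 peaks (exact permutation p = 0.667), and without WT replicate 1 it was 0. As a percentage of the list the values were 0.0461% and 0.0334% in WT and 0.0358% and 0.0325% in Shh-/-, which overlap (difference 0.00559 percentage points, exact permutation p = 0.667).

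The Gli3 window held 7 and 2 peaks in WT and 2 and 4 in Shh-/-, a difference of 1.5 (exact permutation p = 1) that was −1 without WT replicate 1. As a percentage of the list it held 0.0179% and 0.0167% in WT and 0.0358% and 0.0217% in Shh-/-. Here both Shh-/- values were higher than both WT values, with a WT minus Shh-/- difference of −0.0114 percentage points (exact permutation p = 0.333), a separation found in 9.01% of gene windows. In Shh-/- replicate 1 that share rests on 2 peaks.

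Peak density was higher in the Gli1 window than in those of Gli2 and Gli3 in every library. Per 100 kb the Gli1 window held 9.81, 7.14, 3.57 and 3.57 peaks in WT replicates 1 and 2 and Shh-/- replicates 1 and 2. The Gli2 window held 5.63, 1.25, 0.626 and 1.88 and the Gli3 window 1.91, 0.545, 0.545 and 1.09. The medians over all protein-coding gene windows were 1.99, 0.854, 0 and 1.26. The Gli1 window is gene-dense, with 8 other coding genes, whereas the Gli2 and Gli3 windows hold no other coding gene. Outside the Gli1 body, 6, 4, 3 and 3 of its peaks lay at promoters of other genes. A WT replicate 1 peak in exon 13 of Gli1 also overlapped the promoter window of Gm47200. The peaks with the highest scores in the Gli1 window were at the shared promoter region of Ddit3, a stress-response transcription factor gene, and Mbd6, with 1.75%, 3.78%, 17.3% and 6.13% of the lists higher. The promoter of Mars was called in all 4 libraries as well, and that of R3hdm2 in WT replicates 1 and 2 and Shh-/- replicate 2. The promoters of Arhgap9 and Inhbe were called in WT replicate 1 alone. Some neighbours of Gli1 thus had a promoter peak in both Shh-/- libraries and others in neither.

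**Figure D5:**
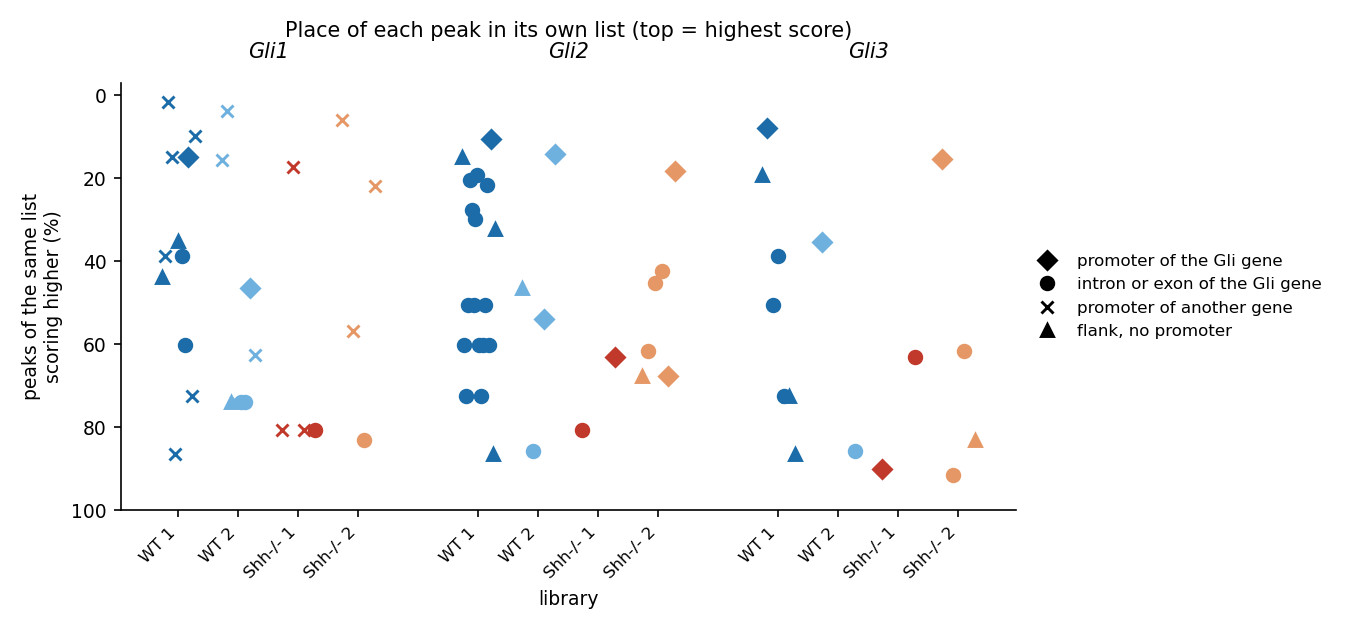
Place of every peak in the 3 windows within its own list, as the percentage of that list scoring higher (0 at the top), by gene and library. Diamonds are promoter peaks of the Gli gene itself, circles its introns and exons, crosses promoters of other genes and triangles the remaining flanks. The highest Gli2 and Gli3 diamonds lie near the top in WT replicate 1 and Shh-/- replicate 2. In Shh-/- replicate 1, the shortest list, they lie lower by this percentage (63.0% and 90.1%). A second Gli2 diamond lies at 53.9% in WT replicate 2 and at 67.6% in Shh-/- replicate 2. Gli1 has diamonds in the WT libraries alone.

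Outside the gene bodies, the best placed regions away from any promoter were a region past the end of Gli2, chr1:118825526-118826148, and one 16.9 kb before Gli3, chr13:15446039-15446553. The former had a peak in WT replicate 1 (score 188, 15.0% higher), WT replicate 2 (score 49, 46.6% higher) and Shh-/- replicate 2 (score 46, 67.6% higher). The latter was called in WT replicate 1 alone (score 139, 19.3% higher). Downstream of Gli3, chr13:15759305-15759588 was called in WT replicate 1 (72.5% higher) and Shh-/- replicate 2 (83.0% higher). In the Gli1 flanks the best placed such peak was chr10:127326311-127326955 in WT replicate 1 (35.1% higher), and in WT replicate 2 chr10:127295127-127295335 (74.0% higher), with none in either Shh-/- list.

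Matches to the GLI consensus were then located. Within 100 bp of the summit of the best placed peak, 5 of the 41 regions (12.2%) held a match with 1 mismatch, against 5.61% of all regions, and no exact match was found. These 5 matches were G6T and T5C near Gli1, C9G in intron 2 of Gli2, C9G in exon 15 of Gli3 and T5G downstream of Gli3, where the first letter is the base of the consensus, the number its position from the 5′ end of TGGGTGGTC and the last letter the base found. Each lay in a region that 1 WT library called. Over the whole length of regions, 9 of 41 held a match, against 14.5% of all regions.

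Of the 41 regions, the one at the 5′ end of Gli1 held the most matches. It held 6 in 3.68 kb, or 1.63 per kb, against 0.294 per kb over all regions and 0.261 per kb over the 82 regions of at least 3 kb. Of those 82 regions, 96.3% held fewer than 6. The 4 in intron 2 differed from the consensus by G7A, T5A, T8G and T1A and are printed below on the strand of the match, with 10 bases on either side and the match in capitals. The other 2, G3C and T1C, lay in the untranslated part of exon 1, 386 and 228 bp from the start. All 6 were covered by the WT replicate 1 peak, T1A also by that of WT replicate 2, and none by a Shh-/- peak. The WT replicate 1 peak was 3658 bp of the 3684 bp region and the Shh-/- peaks 235 and 242 bp. The coverage of matches thus goes with where each peak lay and how long it was, and is no separate contrast of genotypes. The part of peak length in it was not tested.
G7A, chr10:127339423-127339451: gccggcgcggTGGGTGATCccgggatgct
T5A, chr10:127339572-127339600: aatgtcgagcTGGGAGGTCttggatgcgg
T8G, chr10:127340037-127340065: ggcggcgactTGGGTGGGCcgagaaggca
T1A, chr10:127340695-127340723: aagggcaggcAGGGTGGTCtgagccagag

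The promoter window of Gli2 held 1 match, G6C, upstream of the start (position −338) and covered in all 4 libraries, and those of Gli3 held none. The stretch of Gli1 common to all 4 libraries held none either. In intron 2 of Gli2, the region chr1:118982461-118983609 held 1 match, T5A, covered in WT replicate 1 and Shh-/- replicate 2. A match is a likeness of letters and does not show that a GLI protein was bound.

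Gli1 was finally set beside a list of 24 other Hedgehog pathway genes. In WT replicates 1 and 2 a promoter peak was called for 18 and 15 of them, and in Shh-/- replicates 1 and 2 for 9 and 18. In the same order these are 75%, 62.5%, 37.5% and 75%, against 60.4%, 39.2%, 17.3% and 51.3% of all protein-coding genes. Of the 24, 2 shared the pattern of Gli1, both WT libraries and no Shh-/- library, against 1.53% of coding genes. They included Boc, a ligand-binding co-receptor gene, and at equal list size 0 of the 24 did. None showed the reverse.

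By role, the ligand genes were mostly without a call: Shh and Ihh had no promoter peak in any list and Dhh had one in Shh-/- replicate 2 alone. Disp1, needed for ligand release, was called in all 4. Among receptors and co-receptors, Ptch1, which like Gli1 is a widely used target of the pathway, and Gas1 were called in all 4 libraries. Smo, the signal transducer, and Cdon were called in all but Shh-/- replicate 1, and Hhip, which encodes a ligand-binding antagonist, was called in WT replicate 1 and Shh-/- replicate 2. Among genes that act on GLI proteins, Sufu and Spop, which restrain or degrade them, were called in all 4, and Kif7, a ciliary kinesin gene, in WT replicate 1 and Shh-/- replicate 2. The pathway targets Gli1 and Ptch1 therefore had different promoter calls in the same Shh-/- libraries.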

How the data were processed

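ATAC-seq was performed by the authors on individual pairs of posterior forelimb buds (Nextera, paired-end). The submitters' processing notes name Bowtie2 (2.2.5), MACS2 (2.1.0) and the mm10 and GRCm38 builds. Per the paper's methods, MACS2 used a 200 bp window and kept peaks under a q-value of 0.05. Lists were called for each library separately. Read filters and any Tn5 shift are not given in the sources used here. The authors deposited narrowPeak lists whose column 5 is a whole-number score, its scale unstated, and in which 3 other value columns are 0 throughout. The lists hold neither reads nor counts, so the reads and counting error behind a call are not known here, and the authors' test on signal in peaks could not be repeated.

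Groups followed the labels. Peaks were read as 1-based intervals and ranked by score, with ties sharing the best rank. Peaks overlapping by at least 1 bp were merged over libraries. Two-sided exact permutation tests compared 2 WT with 2 Shh-/- libraries, and they cannot give a p below 0.333. Calls have no test and stand beside the same share over all protein-coding genes or regions. The labels do not say that replicate numbers mark a shared litter, and replicate differences of window shares correlated at r = −0.26 between genotypes over 21938 genes, which are not independent. Regions were named as all at the 3 promoters, body regions called in 2 or more libraries, and the best placed distal ones. Where summits differed among libraries, the stretch covered by every calling library was printed in place of a summit window, a choice made after the peaks were seen. Members, gene lists and tests were chosen with earlier results of these data known. Alternatives were lists restricted to 5589 peaks (ties broken by position, or kept), a score of at least 50, other windows, and leaving out each library. Python 3.11.15 with numpy 2.4.6, scipy 1.17.1 and matplotlib 3.10.9 was used, and the interval, rank and motif functions passed 10 tests on simulated data. Some members of the gene lists are counted but not reported here by name.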

Additional observations from a re-analysis of the deposited data

How the results depend on the processing

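The lists limit what can be said: 2 libraries a group, no retained read number for any library, and list lengths that differ several times within a genotype. With lists of equal size the WT minus Shh-/- difference in peak number became −1 (Gli1), −0.5 (Gli2) and −0.5 (Gli3), and the difference in share −0.0179 (Gli1) and −0.00895 (Gli2). With ties kept, an alternative chosen after seeing the data, these were −0.5, 0 and −0.5 for number and −0.0116 and −0.00193 for share. Leaving out each library in turn, the difference in number ranged from 4 to 7 (Gli1), 0 to 14 (Gli2) and −1 to 4 (Gli3), and the difference in share from −0.0241 to 0.0258 (Gli1), −0.000736 to 0.0119 (Gli2) and −0.0185 to −0.00436 (Gli3). The score limit, gene bodies alone and 100 kb flanks turned none of these 6 directions.

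Regions called in all libraries numbered 5, and 3 at equal list size (with or without ties), 2 with a score of at least 50 and 3 on gene bodies alone. Leaving out a library they ranged from 5 to 7. Regions called in WT libraries alone numbered 0, but 1 with 100 kb flanks, and from 0 to 24 on leaving out a library. Those called in Shh-/- libraries alone numbered 0, but 1 when summits within 200 bp were merged, and from 0 to 2 on leaving out a library. The percentage of WT minus that of Shh-/- libraries with a Gli1 promoter peak was 100, and 0 at equal list size, 50 with ties kept, 50 with a score of at least 50 and 50 with a promoter of 500 bp either side. For Gli3 it was 0, and 50 with a score of at least 50. Pathway genes called in both WT libraries alone numbered 2, and 0 at equal list size with or without ties and 1 with a score of at least 50. Regions with a GLI consensus match numbered 5, 0 with exact matches and 9 over whole regions. The replicate block, an exact sign-flip test of same-numbered libraries, gave differences in number of 5.5 (Gli1, p = 0.5), 7 (Gli2, p = 1) and 1.5 (Gli3, p = 1), where 0.5 is the smallest p it allows, and changed no call. The causes of these changes were not tested.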

Other observations

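Related zinc finger genes of the GLI/ZIC superfamily gave calls of their own. Of 8 Glis and Zic genes, a promoter peak was called for 6 and 4 in WT replicates 1 and 2 and for 1 and 6 in Shh-/- replicates 1 and 2. In the same order these are 75%, 50%, 12.5% and 75%, against 60.4%, 39.2%, 17.3% and 51.3% of all protein-coding genes. None was called in both WT libraries alone, against 1.53% of coding genes, or in both Shh-/- libraries alone, against 0.00456%. Zic2 was called in all 4 libraries, whereas Zic1 and Zic4, which are neighbours on chromosome 9, were called in none. Glis1, Glis2 and Zic5 were called in all but Shh-/- replicate 1, and Glis3 in WT replicate 1 and Shh-/- replicate 2. The window of Glis1 held 34, 5, 2 and 13 peaks in WT replicates 1 and 2 and Shh-/- replicates 1 and 2, against 18, 4, 2 and 6 at Gli2.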
